A study of Homo sapiens with 6 samples.

Results

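The BCL2 family decides at the mitochondrial outer membrane whether a cell survives or undergoes apoptosis. Its pro-survival proteins hold the effectors BAX and BAK1 in check, the BH3-only proteins sense stress and either block the pro-survival proteins or activate the effectors directly, and active effectors open the membrane so that cytochrome c escapes and starts the caspases. In breast cancer the family is known for its pro-survival members MCL1 and BCL2L1 (which encodes BCL-XL) and for the BH3 mimetic drugs made against them. The 10 genes described here were taken by symbol from a table of 25545 genes, and comprise 3 pro-survival genes (BCL2, BCL2L1 and MCL1), 2 effectors (BAX and BAK1) and 5 BH3-only genes (BCL2L11, PMAIP1, BBC3, BID and BAD). All 10 were found in the table. A mean of at least 1 TPM (a transcript level scaled by the length of the transcript and by the total of the library) over all libraries was required for a test, which left 9 of the 10 members among 10721 genes tested; BBC3 fell below it and is given by its values.

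Transcripts were measured by RNA-seq in BT-549 cells, a mesenchymal line of triple-negative breast cancer (TNBC). The cells were transfected for 48 h with a control siRNA (CsiRNA, 3 libraries) or with an siRNA directed at the long noncoding RNA NEAT1 (NEAT1siRNA, 3 libraries), and both groups share the line, the medium (RPMI1640 with serum and insulin) and the transfection. The sample titles carry the word tet before NEAT1 in both groups, and the labels name no inducing agent. The cells were cultured in triplicate, each group rests on 1 cell line and on siRNA against 1 transcript, and the labels do not say whether the triplicates were separate transfections, so p-values measure the spread between these libraries, which may be technical.

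The libraries held between 15789249 and 20341353 reads as recovered from the deposited tables, and NEAT1, at 13.4, 7.68 and 10.8 TPM with CsiRNA against 4.36, 2.96 and 2.73 TPM with NEAT1siRNA, was lower in each library labelled as silenced (log2 fold change -1.41, adjusted p = 1.21e-07 from limma). Markers of the line were present in each library, with VIM at 859 to 1112 TPM and SPARC at 340 to 382 TPM, whereas the epithelial gene EPCAM was at or under 0.0301 TPM and the hormone receptor gene ESR1 was listed at 0. Of the other receptor and luminal genes looked at, PGR, GATA3, FOXA1, CDH1 and KRT8 were at or under 0.283 TPM. ERBB2, at 5.76 to 6.36 TPM, and KRT18, at 1.04 to 2.07 TPM, were present in each library. Blood markers were at 0 (CD3E) or at or under 0.0580 TPM (PTPRC), and CD68, a lysosomal gene that is not confined to macrophages, was at 23.2 to 29.2 TPM. Of the genes tested, 14.0% passed an adjusted p under 0.05 (4.99% higher and 8.98% lower after NEAT1 silencing), and for 30.3% the groups did not overlap, each silenced library lying above or below all controls. The deviation of a gene from its group mean moved with the GC content of its transcript in some libraries, most of all in NEAT1siRNA replicate 1 (Spearman rho 0.67) and replicate 2 (rho -0.72), a description across 10106 genes that are not independent.

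The members at which expression differed or nearly differed are BCL2L11, BAD and BCL2L1, and their promoters are shown with that of BAX, the effector with the highest level, as a member that did not pass the test. RefSeq windows of 300 bases on GRCh38.p14 (250 before and 50 after an annotated start) were found for 9 of the 10 members, those named above and BCL2, BAK1, PMAIP1, BBC3 and BID. Where a gene had more than 1 window, the one closest to the 5′ end of the gene in GENCODE was taken. Capitals mark matches on either strand, without overlap between motifs, to CACGTG (the E-box read by MYC and its relatives), GTAAACA (a forkhead element), TGANTCA (an AP-1 element), GGGCGG (a GC box, CCGCCC on the other strand) and CCAAT (the box bound by NF-Y, ATTGG on the other strand). The windows are chr2:111120664-111120963 (plus strand) for BCL2L11, chr11:64284655-64284954 (minus strand) for BAD, chr20:31723914-31724213 (minus strand) for BCL2L1 and chr19:48954625-48954924 (plus strand) for BAX.
BCL2L11: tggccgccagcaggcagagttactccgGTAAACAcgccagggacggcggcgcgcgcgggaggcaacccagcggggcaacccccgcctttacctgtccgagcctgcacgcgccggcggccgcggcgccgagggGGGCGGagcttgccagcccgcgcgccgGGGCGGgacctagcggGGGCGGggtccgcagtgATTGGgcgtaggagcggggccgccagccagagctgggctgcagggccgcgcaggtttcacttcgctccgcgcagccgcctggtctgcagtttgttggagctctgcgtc
BAD: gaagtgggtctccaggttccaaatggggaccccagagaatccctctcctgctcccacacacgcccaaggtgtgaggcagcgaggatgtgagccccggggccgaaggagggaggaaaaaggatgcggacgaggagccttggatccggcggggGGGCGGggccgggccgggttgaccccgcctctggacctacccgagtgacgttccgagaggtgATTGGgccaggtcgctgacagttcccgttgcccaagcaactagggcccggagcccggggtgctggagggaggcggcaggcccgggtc
BCL2L1: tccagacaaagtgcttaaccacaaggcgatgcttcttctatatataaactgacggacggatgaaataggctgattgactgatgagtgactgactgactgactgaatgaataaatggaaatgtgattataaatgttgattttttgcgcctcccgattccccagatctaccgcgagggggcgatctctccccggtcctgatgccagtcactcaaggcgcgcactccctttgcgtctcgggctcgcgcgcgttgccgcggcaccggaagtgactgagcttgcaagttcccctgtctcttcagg
BAX: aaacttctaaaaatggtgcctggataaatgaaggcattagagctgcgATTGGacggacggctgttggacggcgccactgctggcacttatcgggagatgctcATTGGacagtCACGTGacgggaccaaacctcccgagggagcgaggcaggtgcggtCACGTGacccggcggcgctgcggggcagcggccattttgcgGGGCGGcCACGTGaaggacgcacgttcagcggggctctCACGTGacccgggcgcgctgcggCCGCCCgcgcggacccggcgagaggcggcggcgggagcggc

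The BCL2L11 window held 1 forkhead element, 3 GC boxes and 1 CCAAT box, and the BAD window held 1 GC box and 1 CCAAT box. Over all 35116 RefSeq promoter windows of this length, the forkhead element was in 3.42%, the GC box in 45.0% and the CCAAT box in 34.6%. The BAX window held 4 E-boxes, 2 GC boxes and 2 CCAAT boxes, where 7.26% of all windows held an E-box. BBC3 also had 1 E-box, with 1 AP-1 element (in 7.71% of all windows) and 1 CCAAT box, BAK1 had 2 GC boxes and 2 CCAAT boxes, and PMAIP1 had 4 GC boxes. For BCL2L1, BCL2 and BID none of these letters occurred, which says only that they are not in these windows. The CCAAT box was the motif found at each of BCL2L11, BAD and BBC3, and BAX and BAK1 held it too.

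In BT-549/NEAT1siRNA compared with control cells, 2 BH3-only genes rose, BCL2L11 and BAD, and 7 of the 9 members tested did not pass the test. No pro-survival gene and no effector was past the threshold, with MCL1 and BAX, the members with the highest levels, at log2 fold changes of 0.076 and -0.062. The 2 calls among 9 members, both higher, stand beside 14.0% of all genes tested called in either direction and 4.99% called higher, and the median log2 fold change of the members was -0.062 beside -0.044 for all genes. Of all 10 members, 4 had groups that did not overlap, 3 higher (BCL2L11, BAD and BBC3) and 1 lower (BCL2L1), and among the 9 tested the number was 3, where 30.3% of all genes tested did not overlap. In bulk RNA of a culture, a change in every cell and a change in the share of cells that express a gene cannot be told apart.

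**Figure D1:**
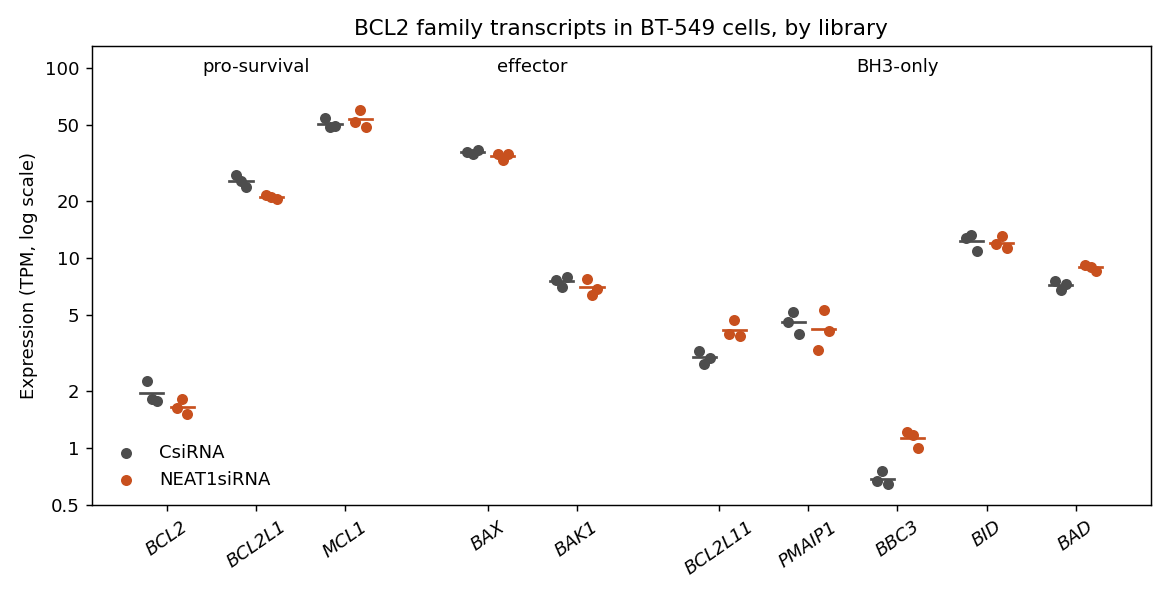
Levels of the 10 members in TPM on a log scale, with a point for each library, a line at the mean of each group of 3, CsiRNA in grey and NEAT1siRNA in orange. The points of the groups are apart for BCL2L1 (lower with NEAT1siRNA) and for BCL2L11, BBC3 and BAD (higher), and they overlap for the other 6 members.

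Among the BH3-only genes, BCL2L11 encodes BIM, which binds all pro-survival proteins and can activate BAX and BAK1 directly. The gene lies on chromosome 2 of GRCh38, from 111119378 to 111168444 on the plus strand. It was at 3.23, 2.77 and 2.99 TPM in CsiRNA replicates 1, 2 and 3, and at 3.98, 4.69 and 3.90 TPM in NEAT1siRNA replicates 1, 2 and 3. All NEAT1siRNA libraries were above all CsiRNA libraries, and the mean rose from 2.998 ± 0.230 to 4.19 ± 0.437 TPM (SD, n = 3), a ratio of means of 1.397. Changes were computed as log2(TPM + 1), where the added 1 shrinks those of low genes such as this one, and the log2 fold change of BCL2L11 was 0.37 (95% interval 0.17 to 0.58, adjusted p = 0.0111 by limma's moderated test). The values rest on 359 to 471 recovered reads per CsiRNA library and 502 to 682 per NEAT1siRNA library. BCL2L11 passed in 16 of 17 other fits, among them each of those without 1 library (adjusted p of 0.00916 to 0.0461 from limma), and was lost with no filter on TPM (adjusted p = 0.0957 from limma).

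BAD encodes a sensitizer that binds BCL2 and BCL-XL and that growth factor signalling keeps inactive by phosphorylation. The gene lies on chromosome 11, from 64269830 to 64284704 on the minus strand. Its levels were 7.52, 6.79 and 7.26 TPM with CsiRNA and 9.15, 8.98 and 8.56 TPM with NEAT1siRNA. The groups did not overlap, and the mean rose from 7.19 ± 0.371 to 8.90 ± 0.306 TPM (SD, n = 3). The log2 fold change was 0.27 (95% interval 0.084 to 0.46), with an adjusted p of 0.0471 from limma, close to the threshold. The BAD call was lost when CsiRNA replicate 1, 2 or 3 was left out (adjusted p = 0.0744, 0.213 and 0.0947 from limma), without NEAT1siRNA replicate 1 or 3 (0.128 and 0.0880), with no filter on TPM (0.0889) and with the trend on GC content and length removed (0.0611), and it was kept in 11 of 18 other fits. Recovered reads were 139 to 181 per library with CsiRNA and 174 to 206 with NEAT1siRNA. Exons of GPR137, on the opposite strand, overlap those of BAD, and GPR137 was at 5.61, 4.62 and 5.64 TPM with CsiRNA and at 7.06, 6.55 and 5.82 TPM with NEAT1siRNA (log2 fold change 0.25, adjusted p = 0.0975 from limma). The library kit keeps strand, the strand setting of the counting is not given in the sources used here, and the part of GPR137 reads in the BAD values was not tested.

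BBC3 encodes PUMA, a potent BH3-only protein that binds all pro-survival proteins. The gene lies on chromosome 19, from 47220822 to 47232766 on the minus strand, and its exons overlap the microRNA genes MIR3191 (same strand) and MIR3190 (opposite strand). BBC3 was at 0.667, 0.760 and 0.645 TPM with CsiRNA and at 1.22, 1.17 and 0.993 TPM with NEAT1siRNA. The highest CsiRNA value was below the lowest NEAT1siRNA value, and the ratio of the means was 1.63. Recovered reads were 26, 30 and 31 with CsiRNA and 51, 52 and 39 with NEAT1siRNA, so each value has a wide counting error. The mean over all libraries, 0.909 TPM, was under the filter. In the fit with no filter, in which 2.73% of 18531 genes passed, the log2 fold change of BBC3 was 0.33 (95% interval 0.18 to 0.48, adjusted p = 0.0486 from limma).

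The remaining BH3-only genes had overlapping groups. BID, whose protein links death receptors to mitochondria once caspase-8 cleaves it, lies on chromosome 22 from 17734138 to 17774770. It was at 12.7, 13.1 and 10.8 TPM with CsiRNA and at 11.8, 12.9 and 11.2 TPM with NEAT1siRNA. Its log2 fold change was -0.024 (95% interval -0.22 to 0.18, adjusted p = 0.909 from limma), and the sign turned under 8 of 18 other fits. PMAIP1 encodes NOXA, a short-lived sensitizer that binds MCL1, and lies on chromosome 18 from 59899996 to 59904305. It was at 4.61, 5.16 and 3.99 TPM with CsiRNA and at 3.29, 5.32 and 4.11 TPM with NEAT1siRNA, so that NEAT1siRNA replicate 1 was the lowest and NEAT1siRNA replicate 2 the highest of all libraries. The log2 fold change of PMAIP1 was -0.11 (95% interval -0.35 to 0.14, adjusted p = 0.613 from limma) and was 0.0289 without NEAT1siRNA replicate 1.

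Of the pro-survival genes, BCL2L1 had the largest difference. It lies on chromosome 20, from 31664452 to 31723989 on the minus strand. Expression was 27.1, 25.3 and 23.4 TPM with CsiRNA and 21.4, 20.9 and 20.3 TPM with NEAT1siRNA. All CsiRNA libraries were above all NEAT1siRNA libraries, the means were 25.3 ± 1.84 and 20.8 ± 0.552 TPM (SD, n = 3), and the recovered reads ran from 1705 to 1921 and from 1356 to 1580. The log2 fold change of -0.27 (95% interval -0.45 to -0.077) had an adjusted p of 0.0527 from limma and so did not pass. BCL2L1 passed in 10 of 18 other fits, at the same sign in all of them and with an adjusted p between 0.00895 and 0.24 from limma. It passed under each other scaling of the libraries (adjusted p = 0.0304 with quantile normalization, 0.0326 with median centring and 0.0213 with TPM rescaled without short noncoding RNAs, all from limma). Among the fits in which it did not pass were those without CsiRNA replicate 1 or 2 (adjusted p = 0.24 and 0.16 from limma). Others were those without NEAT1siRNA replicate 1 or 3 (0.0797 and 0.177) and with no filter on TPM (0.0952). ABALON, a long noncoding RNA on the opposite strand whose exons overlap those of BCL2L1, was at or under 0.14 TPM in every library.

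MCL1, which encodes a short-lived protein that restrains BAK1 and BIM, had the highest level of the 10 members. It lies on chromosome 1, from 150560895 to 150579738 on the minus strand. MCL1 was at 54.1, 48.5 and 49.0 TPM with CsiRNA and at 52.0, 59.8 and 48.6 TPM with NEAT1siRNA. The groups overlapped and NEAT1siRNA replicate 2 was the highest library, which was also the library with the strongest trend on GC content. The log2 fold change of MCL1 was 0.076 (95% interval -0.12 to 0.27, adjusted p = 0.658 from limma), 0.098 with the trend on GC content and length removed, and -0.0067 without NEAT1siRNA replicate 2. BCL2, the founding member, lies on chromosome 18 from 63123346 to 63320128 and was at 2.26, 1.81 and 1.76 TPM with CsiRNA and at 1.61, 1.803 and 1.504 TPM with NEAT1siRNA. NEAT1siRNA replicate 2 lay within the control values, and the log2 fold change of BCL2 was -0.15 (95% interval -0.36 to 0.054, adjusted p = 0.348 by limma).

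ADAMTSL4-AS1, a long noncoding RNA with exons that overlap those of MCL1 on the same strand, was at 2.10, 1.34 and 1.25 TPM with CsiRNA and at 0.978, 0.546 and 0.431 TPM with NEAT1siRNA. The groups did not overlap, on 22 to 34 recovered reads per CsiRNA library and 7 to 17 per NEAT1siRNA library. Its mean over all libraries, 1.11 TPM, met the filter only through the CsiRNA group, so no test is given. MCL1 had 4008 to 5574 reads per library, and the part of MCL1 reads in the ADAMTSL4-AS1 values was not tested. At BCL2L11, the opposite-strand long noncoding RNA MIR4435-2HG had means of 4.44 ± 0.443 TPM with CsiRNA and 3.74 ± 0.409 TPM with NEAT1siRNA (SD, n = 3). Its log2 fold change was -0.20 (adjusted p = 0.2 from limma), a direction opposite to that of BCL2L11.

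Neither effector gene passed the test. BAX, on chromosome 19 from 48954815 to 48961798, was at 35.8, 34.98 and 36.7 TPM with CsiRNA and at 35.3, 32.5 and 35.2 TPM with NEAT1siRNA. Its log2 fold change was -0.062 with a 95% interval of -0.24 to 0.12 (adjusted p = 0.704 from limma). BAK1, on chromosome 6 from 33572547 to 33580293, was at 7.66, 7.04 and 7.93 TPM with CsiRNA and at 7.78, 6.36 and 6.86 TPM with NEAT1siRNA. Its log2 fold change was -0.097 with a 95% interval of -0.30 to 0.10 (adjusted p = 0.565 from limma). In both genes NEAT1siRNA replicate 2 was the lowest library.

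**Figure D2:**
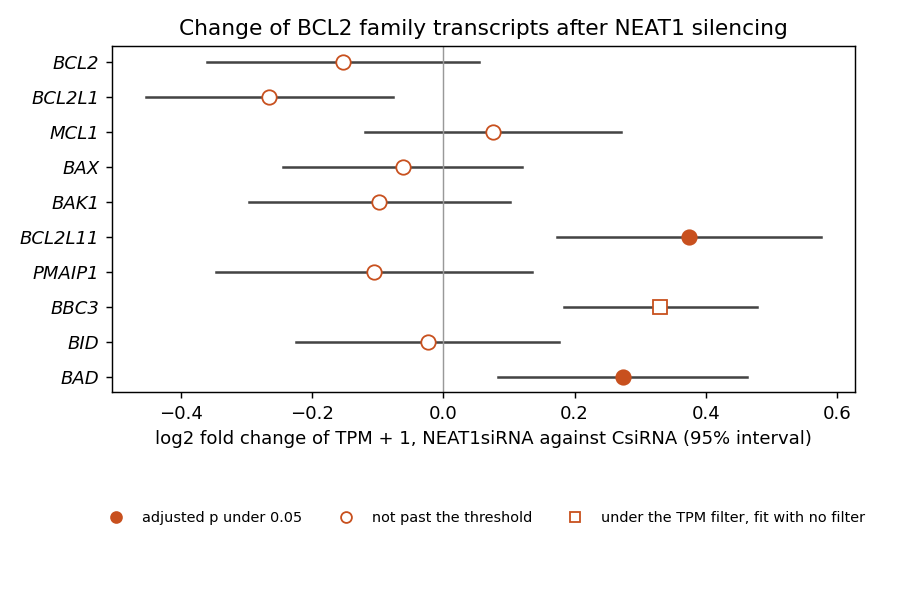
Log2 fold change on the TPM + 1 scale with its 95% interval from limma for each member, NEAT1siRNA against CsiRNA. Filled circles mark BCL2L11 and BAD, which passed an adjusted p under 0.05, open circles the 7 members that did not, and the open square BBC3 from the fit with no filter; the intervals of MCL1, BAX, BAK1, BID, PMAIP1 and BCL2 span 0.

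The order of the levels was nearly the same in both groups. TPM allows an order between genes as far as the transcript lengths behind it hold, and these are not given in the sources used here. With CsiRNA it ran MCL1 (50.6 ± 3.10 TPM), BAX (35.8 ± 0.880), BCL2L1, BID (12.2 ± 1.23), BAK1 (7.54 ± 0.458), BAD, PMAIP1 (4.59 ± 0.587), BCL2L11, BCL2 (1.94 ± 0.274) and BBC3 (0.690 ± 0.0610, SD, n = 3). In that order the ranges of BAK1 and BAD overlapped, and those of all other neighbours were apart. With NEAT1siRNA, BAD stood above BAK1 (6.999 ± 0.720 TPM) with ranges apart, and PMAIP1 (4.24 ± 1.02 TPM) and BCL2L11 overlapped. BCL2, the survival gene for which the family is named, and BBC3 were the members with the lowest levels in BT-549 cells.

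The summed level of the 10 members was 149 ± 5.99 TPM with CsiRNA and 148 ± 6.71 TPM with NEAT1siRNA (SD, n = 3). Pro-survival transcripts made up 52.2% ± 1.22 of the sum with CsiRNA and 51.4% ± 1.85 with NEAT1siRNA, and the effectors 29.2% ± 1.54 and 28.0% ± 2.53. The BH3-only share was 18.5%, 19.5% and 17.8% with CsiRNA and 19.9%, 21.4% and 20.4% with NEAT1siRNA, and for this class alone the groups did not overlap. Of the same sum, the share of BCL2L1 was 16.98% ± 0.667 and 14.1% ± 0.515, and that of MCL1 34.0% ± 0.796 and 36.1% ± 2.28. Among single genes tested, 30.3% did not overlap. The BH3-only class holds BCL2L11, BAD and BBC3, whose own groups were apart, so its share is not a separate observation. All these shares follow from the values above and were not tested.

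A ratio of 2 members within a library does not depend on how the library was scaled, and 12 pairs of a death gene or a survival gene with MCL1 or BCL2L1 were compared. The groups did not overlap in 6 of the 12, all of them higher with NEAT1siRNA and 5 of them with BCL2L1 below the line. BCL2L1 was itself lower with groups apart, so these 5 share that difference and are not separate observations. Among single genes tested, 30.3% did not overlap, and the share among other pairs of genes was not computed. With 3 libraries against 3, the smallest p of an exact permutation test (two-sided) is 0.1, which adjusted over the 12 pairs is 0.2, so no pair could pass. The ratio of BCL2L11 to BCL2L1 was 0.119, 0.109 and 0.127 with CsiRNA and 0.186, 0.224 and 0.192 with NEAT1siRNA, a difference of 0.76 on the log2 scale. The ratio of BAD to BCL2L1 was 0.277, 0.268 and 0.310 with CsiRNA and 0.429, 0.429 and 0.422 with NEAT1siRNA, a log2 difference of 0.58. These are the pairs in which a gene that was higher is divided by one that was lower, and BBC3 to BCL2L1 had the widest log2 difference, 0.98.

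The ratio of MCL1 to BCL2L1 was 1.997, 1.92 and 2.09 with CsiRNA and 2.44, 2.86 and 2.40 with NEAT1siRNA, a log2 difference of 0.35. For BID to BCL2L1 the log2 difference was 0.25, and for BCL2L11 to MCL1 it was 0.40, from 0.0597, 0.0571 and 0.0609 to 0.0765, 0.0784 and 0.0803. The ratios that did not involve BCL2L11 and had MCL1 below the line overlapped, with log2 differences of -0.14 for BAX, -0.19 for BAK1 and -0.21 for PMAIP1 (exact permutation p = 0.5, 0.4 and 0.5). BAX and BAK1 to BCL2L1 also overlapped, at 0.21 and 0.17 (exact permutation p = 0.2 for both), as did BCL2 to BCL2L1 at 0.040 (exact permutation p = 0.6).

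**Figure D3:**
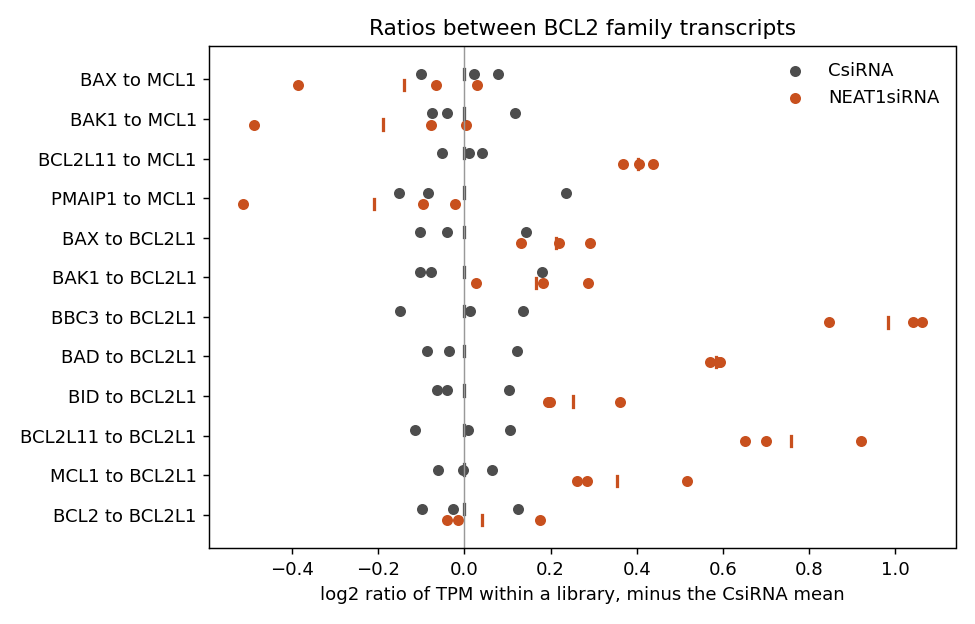
Log2 ratio of TPM of 2 members within each library, drawn as the difference from the CsiRNA mean of that ratio, with a point per library and a short bar at the group mean. The NEAT1siRNA points lie to the right of all CsiRNA points for BCL2L11 to MCL1 and for BBC3, BAD, BID, BCL2L11 and MCL1 to BCL2L1, and the other 6 ratios overlap.

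Beyond the members, 75 further genes of apoptosis were counted in 6 lists, of which 60 were tested, with 4 higher and 5 lower (the median log2 fold change was -0.0091). Of all genes tested, 14.0% passed, 4.99% higher and 8.98% lower, with a median log2 fold change of -0.044. The counts of each list below stand beside these shares, and no list was tested against them. With median centring 10 were higher and 5 lower, with quantile normalization 8 and 5, and with TPM rescaled without short noncoding RNAs 7 and 5. The number of higher genes also rose among all genes tested. There, 535 higher and 963 lower became 1158 and 954, 1082 and 1109, and 940 and 1119 in the same order of settings. Other genes with BCL2 homology numbered 13, of which 6 were tested, 2 rose and none fell (median log2 fold change -0.029). These were BNIP3, from 25.9 ± 1.49 to 38.1 ± 5.16 TPM (SD, n = 3, log2 fold change 0.53, adjusted p = 0.000633 from limma), and BNIP3L, from 43.5 ± 1.69 to 68.4 ± 12.0 TPM (SD, n = 3, log2 fold change 0.63, adjusted p = 0.000154 from limma). Both encode mitochondrial proteins known for the removal of mitochondria by autophagy and for induction by hypoxia, more than for apoptosis. BNIP3L was at 57.8, 81.3 and 65.9 TPM in NEAT1siRNA replicates 1, 2 and 3, above the CsiRNA range of 41.6 to 44.8 TPM. BCL2L2, the gene of the pro-survival protein BCL-w, was at 3.89 ± 0.261 and 3.12 ± 0.322 TPM (SD, n = 3) and did not pass (log2 fold change -0.25, adjusted p = 0.0895 from limma).

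Downstream of the family, none of the 8 genes tested in the list of 9 for the apoptosome and the caspases passed (median log2 fold change 0.021). CYCS, the gene of cytochrome c, was at 93.4 ± 6.96 TPM with CsiRNA and 93.7 ± 13.3 TPM with NEAT1siRNA (SD, n = 3). Of the 12 genes for inhibitors of apoptosis and mitochondrial death factors, all tested, 1 fell and none rose (median log2 fold change -0.082). It was BIRC6, a large ubiquitin ligase that restrains caspases, from 8.66 ± 1.34 to 6.67 ± 0.617 TPM (SD, n = 3, log2 fold change -0.33, adjusted p = 0.0360 from limma). The channel genes VDAC3 and VDAC1, the most abundant of the list, had log2 fold changes of -0.0089 and -0.11 and did not pass.

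In death receptor signalling, 1 of 7 genes tested (8 listed) fell, none rose, and the median log2 fold change was -0.075. TNFRSF10B, the gene of the TRAIL receptor DR5, was at 19.9, 19.1 and 17.7 TPM with CsiRNA and at 9.48, 9.68 and 8.96 TPM with NEAT1siRNA. Its log2 fold change of -0.94 (adjusted p = 9.42e-08 from limma) was larger in size than that of any member. TNFRSF1A, the most abundant receptor of the list, was at 102 ± 3.40 and 106 ± 3.57 TPM (SD, n = 3) and did not pass (log2 fold change 0.059).

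Of a list for the p53 axis, mostly p53 target genes, 19 of 23 were tested, 2 rose, 3 fell and 14 did not pass (median log2 fold change 0.029). CCNG1, a cyclin G gene, rose from 53.6 ± 4.95 to 74.1 ± 14.9 TPM (SD, n = 3, log2 fold change 0.45, adjusted p = 0.00789 from limma), and RRM2B, a ribonucleotide reductase subunit, had a log2 fold change of 0.31 (adjusted p = 0.0488 from limma). The call of RRM2B was close to the threshold, at 15.0, 13.9 and 12.5 TPM with CsiRNA and 15.3, 20.4 and 16.6 TPM with NEAT1siRNA. GDF15, a stress-induced secreted factor, fell from 23.8 ± 1.51 to 15.8 ± 1.23 TPM (SD, n = 3, log2 fold change -0.56, adjusted p = 0.000193 from limma). AEN, which encodes a nuclease, and MDM4 fell with log2 fold changes of -0.41 and -0.32 (adjusted p = 0.00491 and 0.0348 from limma). The called genes of this list moved both ways.

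Of 10 regulators of the members, 8 were tested and none passed in either direction (median log2 fold change 0.032). ATF4, a stress transcription factor upstream of PMAIP1 and BBC3, had a log2 fold change of 0.055, and USP9X, a deubiquitinase that stabilizes MCL1 protein, of -0.18. The forkhead factor FOXO3, known to act on BCL2L11, was at 7.06 ± 0.907 and 7.44 ± 0.582 TPM (SD, n = 3, log2 fold change 0.069, adjusted p = 0.709 from limma).

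Likeness of pattern was measured for the member with the highest level in each class, as the root mean square difference between log2(TPM + 1) values, each relative to its own CsiRNA mean, over the 6 libraries. The closest genes to MCL1 were ADAMTS3 (0.0148), TTC3 (0.0199) and CNTN4 (0.0240). Those closest to BAX were SLC35C1 (0.0243), LOC101927151 (0.0252) and LGALS3BP (0.0263), and those closest to BID were GNG5 (0.0178), MED10 (0.0200) and ELAVL1 (0.0233). No other BCL2 family gene was among them.

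The calls of 3 members depended on the setting, and MCL1 is drawn with them for comparison. BCL2L11 was positive in all fits, BAD was positive in all fits with calls that came and went, and BCL2L1 was negative in all fits with calls under 10 of the 18 others.

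**Figure D4:**
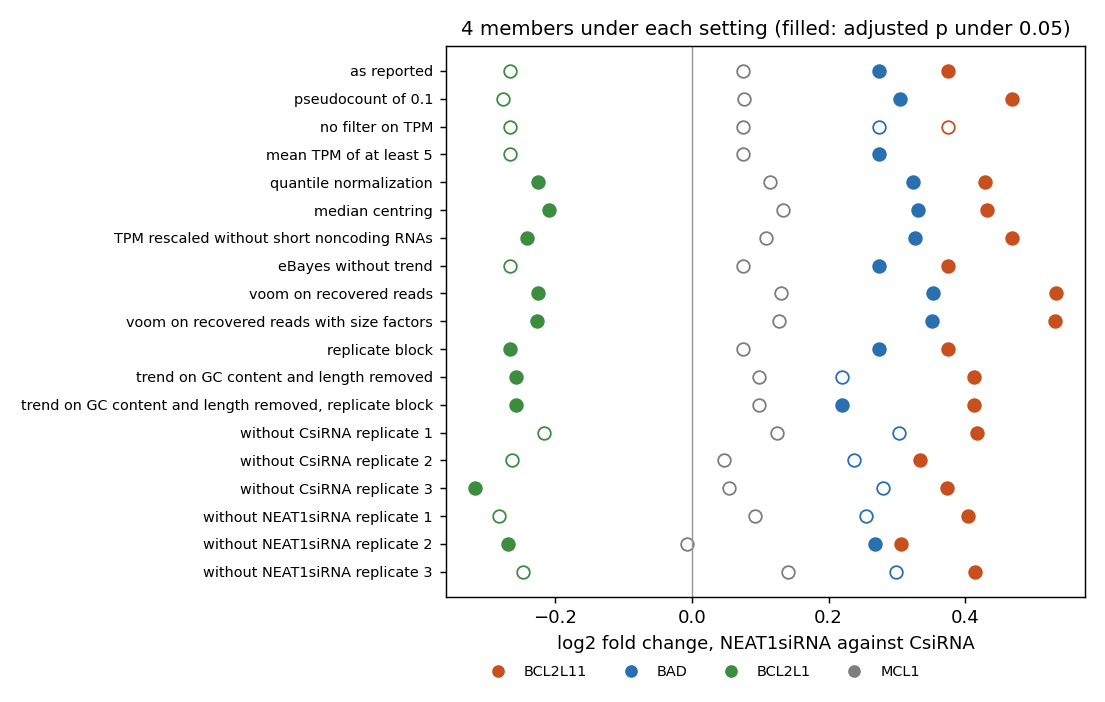
Log2 fold change of BCL2L11, BAD, BCL2L1 and MCL1 under each setting of the analysis, filled where the adjusted p was under 0.05. BCL2L11 is filled in all settings drawn but the one with no filter, BAD and BCL2L1 change between filled and open without crossing 0, and MCL1 is open throughout and just under 0 without NEAT1siRNA replicate 2.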

How the data were processed

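RNA-seq was analyzed for 3 CsiRNA and 3 NEAT1siRNA libraries of BT-549 cells at 48 h, grouped by their titles. Per the labels and the methods of the study, stranded mRNA libraries were made, reads were aligned to GRCh38 with STAR and gene counts were compared with DESeq2. The authors deposited TPM per gene and library for 25545 genes, with 1000000 TPM in each library. A second deposited table holds, for 19392 genes, the mean normalized count over all libraries (a signal after division by size factors) and the authors' own fold changes and p-values, which were not used. Depth was recovered by joining both tables: 99.8% of values of genes with a mean normalized count under 5, and 22.9% of those above 500, came within 0.05 of a whole number, so reads of abundant genes are approximate.

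TPM were transformed to log2(TPM + 1), a mean TPM of 1 or more was required (10721 genes), and NEAT1siRNA was compared with CsiRNA by lmFit and eBayes of limma 3.58.1 in R 4.3.3 (two-sided, trend on mean expression), with Benjamini-Hochberg adjustment over all genes tested and a threshold of 0.05. In 10 simulated data sets with 200 of 10721 genes changed, 99.2% of changes of 1 (log2) and 46.9% of changes of 0.5 were recovered, and 8.04% of calls were false. The share of false calls was above the threshold of 0.05. Simulated counts were drawn independently, with the same dispersion for all genes and no trend on GC content. The real libraries carried such trends and 1498 genes passed in them, so these rates need not hold for them. A set of 4 short noncoding RNAs held 64.4% to 68.1% of TPM. Python 3.11.15 was used with pandas 2.3.3, scipy 1.17.1 and matplotlib 3.10.9. Positions and overlaps came from GENCODE v44 and promoter windows from RefSeq (GRCh38.p14).

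The members and lists were chosen with earlier results of these data known. The genes named are the members, NEAT1, in each list up to 8 genes past the threshold and the 2 with the highest TPM, and the 3 genes closest in pattern to the member with the highest TPM of each class. BCL2L2, FOXO3 and BMF, and the genes that overlap members, were named after their values were seen. The results of 2 genes that the rule names are not reported here. Settings varied are given in the closing section.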

Additional observations from a re-analysis of the deposited data

How the results depend on the processing

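The number of members past the threshold, 2, was 1 with no filter on TPM, where BBC3 alone passed and BCL2L11 and BAD did not. The number was also 1 with a mean TPM of at least 5, where BAD passed and BCL2L11 fell under the filter. It was 4 with TPM rescaled without short noncoding RNAs, where BBC3 met the filter and passed. At an adjusted p under 0.01 it was 0, and it was 1 to 3 when 1 library was left out. For the other lists, 9 genes passed, against 3 with no filter, 15 with median centring, 16 with voom on recovered reads, 16 with voom and size factors (a setting chosen after seeing the data), 16 with the trend on GC content and length removed and a replicate block, and 6 to 12 when 1 library was left out. Of all genes tested 1498 passed, against 505 with no filter, 2505 with voom, 2463 with voom and size factors, 2630 with the GC trend removed and a replicate block, 719 at an adjusted p under 0.01, and from 784 (without CsiRNA replicate 1) and 832 (without NEAT1siRNA replicate 3) to 2076 (without NEAT1siRNA replicate 2). The split of 535 higher and 963 lower genes became 1082 and 1109 with quantile normalization and 1158 and 954 with median centring. The sign of BID turned with quantile normalization (0.0329), median centring (0.0332), rescaled TPM (0.0067), voom (0.031), voom with size factors (0.0286), and without CsiRNA replicate 1 (0.0053), CsiRNA replicate 2 (0.0259) or NEAT1siRNA replicate 3 (0.0196), where leaving out 1 library gave -0.1022 to 0.0259. The sign of MCL1 turned without NEAT1siRNA replicate 2 (-0.0067, range -0.0067 to 0.1411) and that of PMAIP1 without NEAT1siRNA replicate 1 (0.0289, range -0.2501 to 0.0289). The cause of these changes was not tested. With the replicate number as a block, 3 members and 1640 genes passed, and BCL2L1 (log2 fold change -0.2655) had an adjusted p of 0.0376 from limma. The pairing has no basis in the labels, and the deviations of libraries with the same number correlated at -0.03, 0.25 and -0.11. Only the libraries with number 2 correlated best with each other. The highest correlation was 0.4, between CsiRNA replicate 3 and NEAT1siRNA replicate 1. Among the members, depth limited BBC3 most, at 26 to 52 reads per library.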

Other observations

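Among the genes of the lists that fell under the filter on TPM, BMF stood apart, a BH3-only gene whose protein is held at the cytoskeleton and released by loss of attachment. BMF was at 0.341, 0.255 and 0.318 TPM with CsiRNA and at 1.07, 1.18 and 1.05 TPM with NEAT1siRNA. All NEAT1siRNA libraries were above all CsiRNA libraries, and the ratio of the means was 3.60. Recovered reads were 33, 25 and 38 with CsiRNA and 111, 130 and 102 with NEAT1siRNA. In the fit with no filter on TPM, in which 2.73% of genes passed, the log2 fold change of BMF was 0.68 (95% interval 0.57 to 0.80) with an adjusted p of 0.00480 from limma, and of the 14 list genes that were under the filter and could be fitted it was the 1 that passed. At such levels the added 1 shrinks the log2 fold change and its interval, so they are not on the scale of the ratio of the means. BMF was chosen after its values were seen.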
